A study of Homo sapiens with 6 samples.

Results

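The genes described here encode the machinery that shortens, decaps and degrades mRNA. They are 52 listed genes, chosen by name and by no rule on their changes, though with earlier results of these data known. They fall into 9 sets: CCR4-NOT subunits (10 genes), the TOB and BTG adaptors (4), PAN2-PAN3 with PARN (3), decapping and 5' to 3' decay factors (11), the RNA exosome (10), nonsense-mediated decay factors (6), cytoplasmic poly(A)-binding proteins (2), the cap-binding repressor 4EHP with its partner (2), and AGO2 with the TNRC6 scaffolds (4). Of these, 51 reached the mean count of 50 over the 6 libraries that was required for a measured gene, of 11909 genes that did so in all. The one just outside was DCP1A, with a mean count of 39.0, and the one just inside was BTG2, with a mean count of 64.0.

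RNA came from J82, an established line of human bladder cancer. The tet-ZFP36L1 cells overexpress ZFP36L1 with doxycycline and the tet-control cells are their control. Both were sampled without doxycycline (0 h) and after 6 and 24 h with it at 1 µg/mL. Each of the 6 groups (tet-ZFP36L1 at 0, 6 and 24 h, tet-control at 0, 6 and 24 h) had 1 library, so the groups could not be tested against each other and the text holds no p-value. The labels state neither the promoter, nor whether a line is 1 clone, nor what the control cells carry.

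In the main route of mRNA decay the poly(A) tail is removed first, by PAN2-PAN3 and then by CCR4-NOT, after which the body is degraded from the 5' end by decapping and XRN1 or from the 3' end by the exosome. ZFP36L1 and its relatives bind AU-rich elements in 3' UTRs and recruit CCR4-NOT to the bound mRNA, so the genes below encode the enzymes that these proteins are known to work through. Some decay factors are themselves encoded by mRNAs with AU-rich 3' UTRs.

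Sequences from the 3' UTRs are shown first, because they give the site class that the induced protein is known to bind. The core heptamer TATTTAT was searched in the 3' UTR of each gene's leading transcript, here the one with the highest mean estimated count among its protein-coding transcripts with an annotated 3' UTR of at least 50 bases (GRCh38, GENCODE 29). For AGO2, DIS3 and EXOSC4 this was not the gene's most abundant transcript, and it held 30%, 24% and 0.309% of the gene's counts. It was searched on the mRNA strand alone, since the protein binds RNA. The longer TTATTTATT contains it. Each line gives the heptamer in capitals with up to 11 bases before it and up to 11 after it, 5' to 3' on the mRNA strand. The first 7 come from listed decay genes, CNOT3, EXOSC9 and XRN1 with lower values after induction, and UPF1, GIGYF2, TOB2 and PAN3 as carriers whose differences were small at 6 h, 24 h or both. The last 4 come from other decay genes, described at the end, that were at least 1.5-fold lower at both times.
CNOT3 (chr19:54155644-54155672, plus strand): attttggaaaaTATTTATgaataaatagt
EXOSC9 (chr4:121816888-121816909, plus strand): attaaaagggaTATTTATtcca
XRN1 (chr3:142310988-142311016, minus strand): agaatggctctTATTTATgtgtgttttaa
UPF1 (chr19:18867923-18867951, plus strand): gcagggactctTATTTATtcccattgctc
GIGYF2 (chr2:232858090-232858118, plus strand): tactcaagcccTATTTATaaacaaatact
TOB2 (chr22:41435380-41435408, minus strand): tcgcaagtcctTATTTATatgtgaggctg
PAN3 (chr13:28294828-28294856, plus strand): gctttgttttaTATTTATttttcatttag
BTG3 (chr21:17593831-17593859, minus strand): ttggacttgagTATTTATatattgtgcat
CPEB4 (chr5:173956922-173956950, plus strand): gggagtgcactTATTTATttaacttactt
RC3H2 (chr9:122849199-122849227, minus strand): cttagttaactTATTTATttctattttat
TENT4A (chr5:6756694-6756722, plus strand): ttgataaagaaTATTTATaaaaactgatc
The UPF1, CPEB4 and RC3H2 windows hold the longer TTATTTATT, and the other 8 windows hold the heptamer alone.

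Levels are CPM (counts per 1000000 gene counts, scaled by TMM factors), given at 0, 6 and 24 h. ZFP36L1 itself stood at 220.2, 3127 and 3133 CPM in tet-ZFP36L1, against 233.8, 223.3 and 206.0 CPM in tet-control. Gene counts per library lay between 19605308 and 20245037. The 24 h library of tet-ZFP36L1 was unlike the others, with a TMM factor of 1.115 (0.941 to 1.006 elsewhere) and 15607 genes with at least 10 counts (14433 to 14872 elsewhere). Its part in the 24 h values was not tested. KRT7, KRT8 and KRT18 were present in every library at 43.9 to 764 CPM, while the urothelial markers UPK2 and UPK3A had 0 counts and KRT5, KRT19, GATA3 and CDH1 were at 1.28 CPM or less. The mesenchymal markers VIM and CDH2 were at 74.9 to 1488 CPM, and the immune marker PTPRC had at most 3 counts. The macrophage marker CD68 was at 10.8, 15.03 and 28.19 CPM in tet-ZFP36L1, against 1.04, 6.85 and 4.76 CPM in tet-control. The urothelial regulator PPARG was at 4.86, 1.14 and 2.79 CPM in tet-ZFP36L1, against 16.58, 6.42 and 10.93 CPM in tet-control, and the epithelial marker EPCAM lay between 3.16 and 4.32 CPM. The part of these markers in the results was not tested.

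Expressed per length, levels spanned a wide range. PABPC1, which coats poly(A) tails, was the most abundant of the measured decay genes, with a mean of 2228 TPM over the 6 libraries, and BTG2 the least, with 1.63 TPM. The median of the 51 was 41.0 TPM. By set, the median was 63.9 TPM for the exosome, 54.5 TPM for CCR4-NOT, 35.5 TPM for decapping and 5' decay, 17.3 TPM for nonsense-mediated decay and 14.1 TPM for AGO2 and TNRC6.

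The main comparison was the induction difference, which is the change from 0 h within tet-ZFP36L1 less the change from 0 h within tet-control, on the log2(CPM + 0.5) scale. Both times use the same 0 h libraries. A value at least 1.5-fold from 0 (0.585 on the log2 scale) is called lower or higher, which is a rule of size and not a test. Intervals are 95% intervals of counting error only.

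Most of the machinery differed little. At 6 h the median induction difference of the 51 genes was 0.11, against -0.01 for all measured genes. At least 1.5-fold lower were 2 genes (TOB1 and CNOT3, 3.92%), against a background of 14.3% of all measured genes, and 2 were at least 1.5-fold higher (CNOT6L and EXOSC1, 3.92%), against 7.02%. At 24 h the median was -0.00, against -0.02 for all genes. Lower by at least 1.5-fold were 3 genes (EXOSC9, TOB1 and EXOSC8, 5.88%), against a background of 17.4%, and 2 were higher (CNOT6L and DCP1B, 3.92%), against 13.9%. In both directions and at both times the share of decay genes lay below the background in this main setting. With protein-coding transcripts alone, the share higher at 6 h was above it. With plain CPM, without TMM factors, the 24 h median of all genes moved by more than 0.1, to 0.15, that of the decay genes was 0.17, and 2 of them were lower and 3 higher.

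The spread was correspondingly narrow. Within 1.5-fold of 0 lay 92.2% of the decay genes at 6 h, against 78.7% of all measured genes, and 90.2% at 24 h, against 68.7%. The interquartile range of the log2 difference was 0.42 against 0.62 at 6 h and 0.47 against 0.75 at 24 h. Count level moves with this spread. When all measured genes were put into 5 bins of equal size by mean count, the share within 1.5-fold at 6 h was 68.4% in the bin with the lowest counts and 87.6% in that with the highest. The 3 bins with the highest counts held 14, 15 and 14 of the decay genes. In these bins, from lower to higher counts, 92.9%, 100% and 92.9% of decay genes lay within 1.5-fold at 6 h, against 79.7%, 82.3% and 87.6% of all genes. At 24 h the shares were 100%, 86.7% and 100%, against 70.5%, 75.2% and 73.7%. The second-lowest bin held 5 decay genes, of which 60% lay within 1.5-fold at both times, against 75.3% of all genes at 6 h and 65.9% at 24 h. The lowest bin held 3, of which 100% and 66.7% lay within it, against 68.4% and 58.1%.

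**Figure D1:**
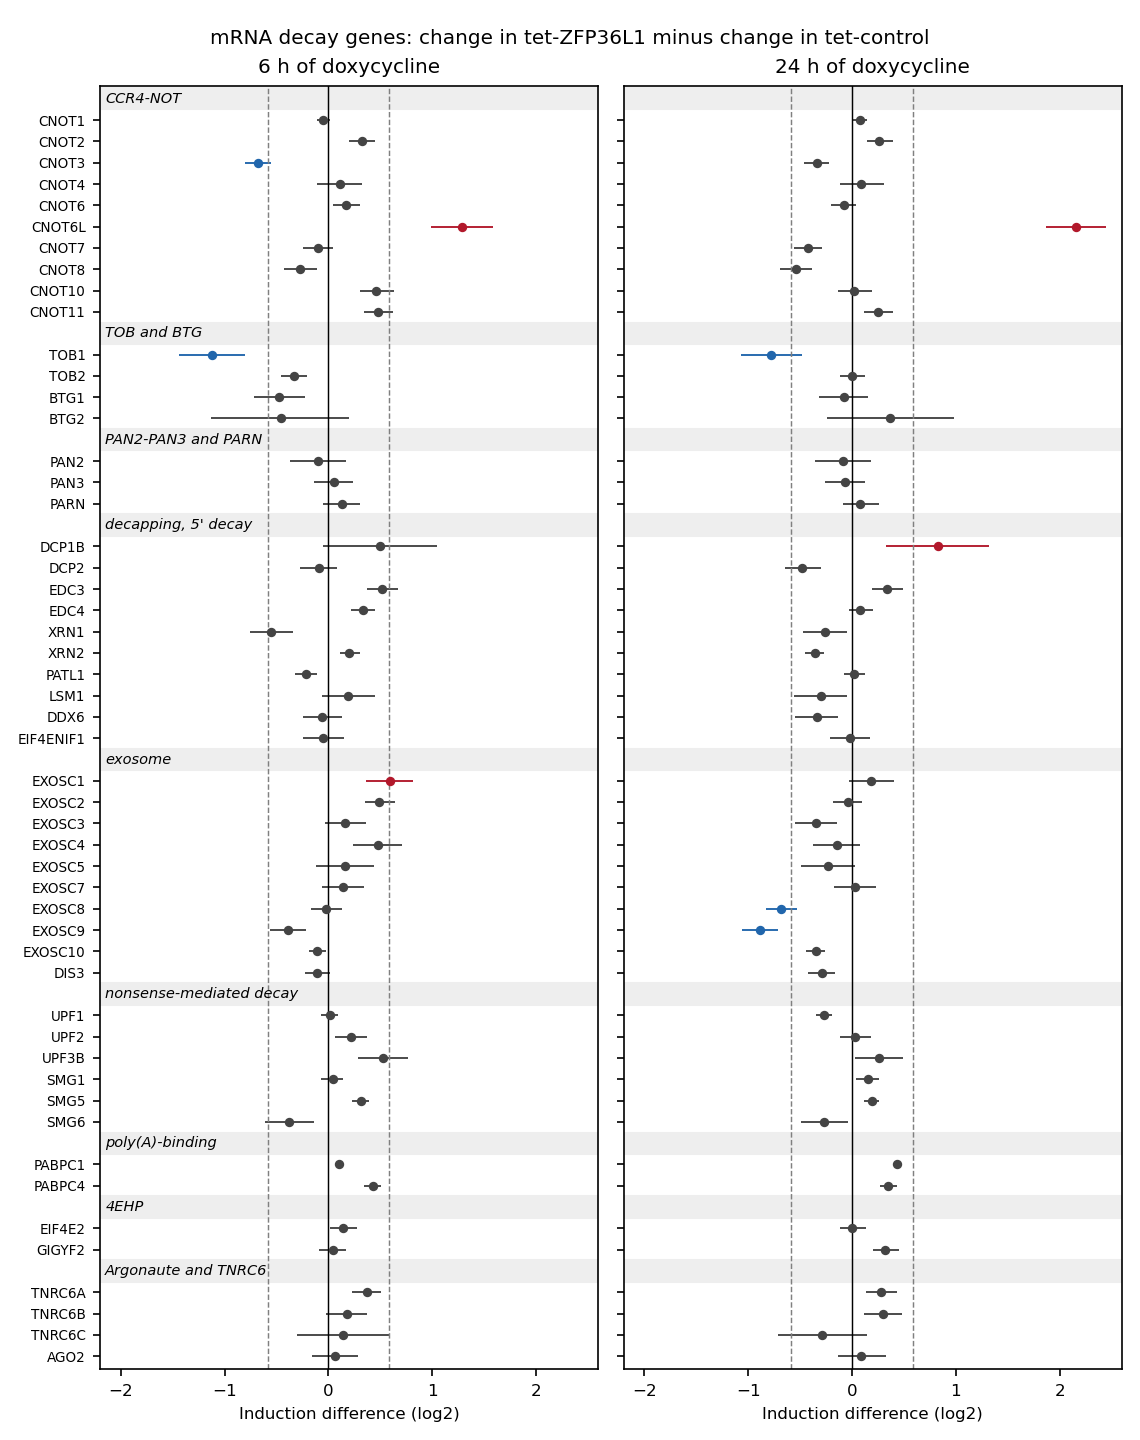
Induction difference of each measured decay gene at 6 h (left panel) and 24 h (right panel) of doxycycline, in log2 units, by set; points are single values, bars are 95% counting intervals, dashed lines mark 1.5-fold, and blue and red mark genes past it. Most genes lie between the dashed lines, with TOB1 and CNOT3 below them at 6 h, EXOSC9, TOB1 and EXOSC8 below at 24 h, and CNOT6L at 1.29 and 2.16.

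The changes from 0 h within each line were also small at most of the genes. In tet-ZFP36L1 the 51 genes had medians of 0.19 (6 h) and 0.02 (24 h), against 0.06 and 0.04 in tet-control. In tet-ZFP36L1 at 6 h, 2 genes were at least 1.5-fold below 0 h (TOB1 and BTG1; background 15.6%) and 3 above it (PABPC4, TNRC6A and EDC3; background 9.09%). At 24 h, 3 were below 0 h (TOB1, EXOSC9 and CNOT8; background 17%) and 3 above it (DCP1B, BTG2 and PABPC1; background 11.8%). In tet-control at 6 h, CNOT6L alone was at least 1.5-fold below 0 h (background 7.72%) and none was above it (background 7.47%). At 24 h CNOT6L was below it (background 1.92%) and TNRC6C above it (background 1.6%), so there the decay genes were near the background.

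CCR4-NOT is the main cytoplasmic deadenylase, built on the scaffold CNOT1 with 2 kinds of catalytic subunit, CNOT7 or CNOT8 and CNOT6 or CNOT6L. Its 10 measured genes had a median induction difference of 0.14 at 6 h and 0.05 at 24 h. At 6 h, 1 gene was lower (background 14.3%) and 1 higher (background 7.02%) by at least 1.5-fold. At 24 h, 0 were lower (background 17.4%) and 1 was higher (background 13.9%). CNOT1 (GRCh38 chromosome 16), the member with the most transcripts per length, stood at 417, 499.7 and 433 CPM in tet-ZFP36L1, against 392, 488 and 387 CPM in tet-control, a difference of -0.05 (-0.11 to 0.01) at 6 h and 0.08 (0.01 to 0.14) at 24 h. Both lines had their highest CNOT1 level at 6 h.

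CNOT3 (GRCh38 chromosome 19, 54137717 to 54155708, plus strand), a subunit of the NOT module that binds CNOT1 and CNOT2, stood at 109, 74.97 and 86.0 CPM in tet-ZFP36L1, against 116, 128.5 and 117 CPM in tet-control. The tet-ZFP36L1 libraries at 6 and 24 h were the lowest of the 6. The induction difference was -0.68 (-0.80 to -0.55) at 6 h and -0.34 (-0.46 to -0.22) at 24 h, and the call at 6 h was not made with the deposited TPM. A single transcript, whose 3' UTR spans 301 bases, took 85.9% of the CNOT3 counts on average, and its heptamer is the one printed above.

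The Ccr4-type deadenylase CNOT6 stood at 112, 92.2 and 99.7 CPM in tet-ZFP36L1, against 101, 73.5 and 94.8 CPM in tet-control, so both lines were lowest at 6 h and the difference was 0.17 (0.04 to 0.30). Its paralog CNOT6L (GRCh38 chromosome 4, 77713387 to 77819615, minus strand) stood at 17.7, 16.4 and 24.5 CPM in tet-ZFP36L1, against 34.5, 12.8 and 10.3 CPM in tet-control. The tet-control library at 0 h was the highest of the 6, and the differences of 1.29 (0.99 to 1.58) and 2.16 (1.87 to 2.45) came mostly from the changes in tet-control, -1.39 and -1.70, against -0.10 and 0.46 in tet-ZFP36L1. With the deposited TPM the differences were 0.68 at 6 h and 1.62 at 24 h.

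The CNOT6L gene sum rested in part on 1 long transcript, ENST00000504123, with a 3' UTR of 7044 bases. Its estimated count was 123.8, 0.1 and 177.6 at 0, 6 and 24 h in tet-ZFP36L1, against 338.4, 0.2 and 0.2 in tet-control. Without it, CNOT6L stood at 11.6, 16.4 and 16.4 CPM in tet-ZFP36L1, against 17.7, 12.8 and 10.3 CPM in tet-control. The induction difference was then 0.94 (0.61 to 1.26) at 6 h and 1.24 (0.91 to 1.57) at 24 h, smaller and still past 1.5-fold. The changes from 0 h were then -0.45 (6 h) and -0.76 (24 h) in tet-control, against 0.49 and 0.48 in tet-ZFP36L1. Without this transcript the 6 h changes of the lines were of like size and opposite sign. Leaving it out took 123.8 counts from tet-ZFP36L1 at 0 h and 0.1 at 6 h, which by itself raised the 6 h change of that line. This alternative was added after the data were seen.

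**Figure D2:**
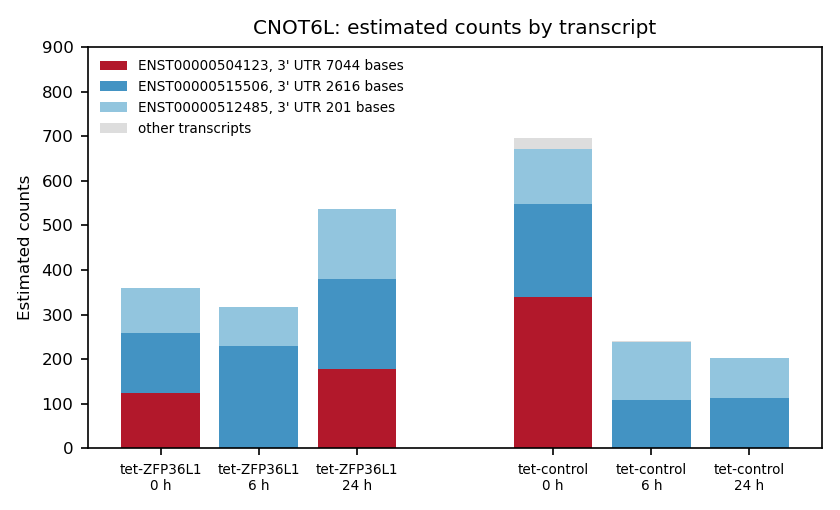
Estimated counts of CNOT6L by annotated transcript in each library, stacked, with tet-ZFP36L1 at 0, 6 and 24 h left of tet-control at the same times. The transcript with the 7044-base 3' UTR holds 338.4 counts in tet-control at 0 h and near 0 in 3 of the other libraries, while the other main transcripts are present in all 6.

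Of the Caf1-type deadenylases, CNOT7 stood at 85.0, 73.3 and 66.4 CPM in tet-ZFP36L1, against 87.0, 80.7 and 91.2 CPM in tet-control. Its paralog CNOT8 stood at 85.7, 57.8 and 54.0 CPM in tet-ZFP36L1, against 71.4, 58.1 and 65.5 CPM in tet-control. Both had their lowest value in tet-ZFP36L1 at 24 h, with differences there of -0.42 (-0.56 to -0.29) for CNOT7 and -0.54 (-0.69 to -0.39) for CNOT8, inside the 1.5-fold limit. Of the rest, CNOT10 and CNOT11, which form a module at the CNOT1 N terminus, had differences of 0.46 and 0.48 at 6 h and 0.02 and 0.25 at 24 h. CNOT2 had 0.32 and 0.26, and the ubiquitin ligase CNOT4 had 0.11 and 0.09.

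TOB and BTG proteins are small antiproliferative adaptors that bind CNOT7 and CNOT8. At 6 h all 4 genes had an induction difference below 0, as had 6020 of all 11909 measured genes. The median of the 4 was -0.47, and 1 of 4 was at least 1.5-fold lower (background 14.3%). At 24 h the median was -0.04 with 3 of 4 below 0, and with plain CPM or deposited TPM it was 0.13 with 1 of 4 below 0. In tet-ZFP36L1 at 6 h all 4 were below their own 0 h level, with a median change of -0.47, against -0.04 in tet-control. That change is a part of the induction difference and not a separate result.

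TOB1 (GRCh38 chromosome 17, 50862223 to 50867978, minus strand) stood at 21.7, 8.66 and 11.03 CPM in tet-ZFP36L1, against 19.6, 17.6 and 17.4 CPM in tet-control. The tet-ZFP36L1 libraries at 6 and 24 h were the lowest of the 6, with differences of -1.12 (-1.44 to -0.80) and -0.78 (-1.07 to -0.48). It was the only one of the 51 lower by at least 1.5-fold at both times, and its leading transcript had no heptamer in a 3' UTR of 757 bases. TOB1 shared 8.81% of its 31-base words with the antisense gene TOB1-AS1, and no source used here says whether reads were assigned by strand. Its paralog TOB2 stood at 105, 86.8 and 102 CPM in tet-ZFP36L1, against 103, 108 and 101 CPM in tet-control, a difference of -0.33 (-0.46 to -0.21) at 6 h and -0.00 (-0.12 to 0.12) at 24 h.

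BTG1 (GRCh38 chromosome 12) stood at 62.2, 39.1 and 50.5 CPM in tet-ZFP36L1, against 19.4, 17.0 and 16.7 CPM in tet-control. Every tet-ZFP36L1 library was above every tet-control library, including at 0 h. The induction difference was -0.48 (-0.72 to -0.23) at 6 h and -0.08 (-0.32 to 0.15) at 24 h. BTG2, a p53 target, was near the limit of measurement at 3.05, 2.49 and 5.54 CPM in tet-ZFP36L1, against 2.18, 2.62 and 3.04 CPM in tet-control, and both of its intervals included 0.

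**Figure D3:**
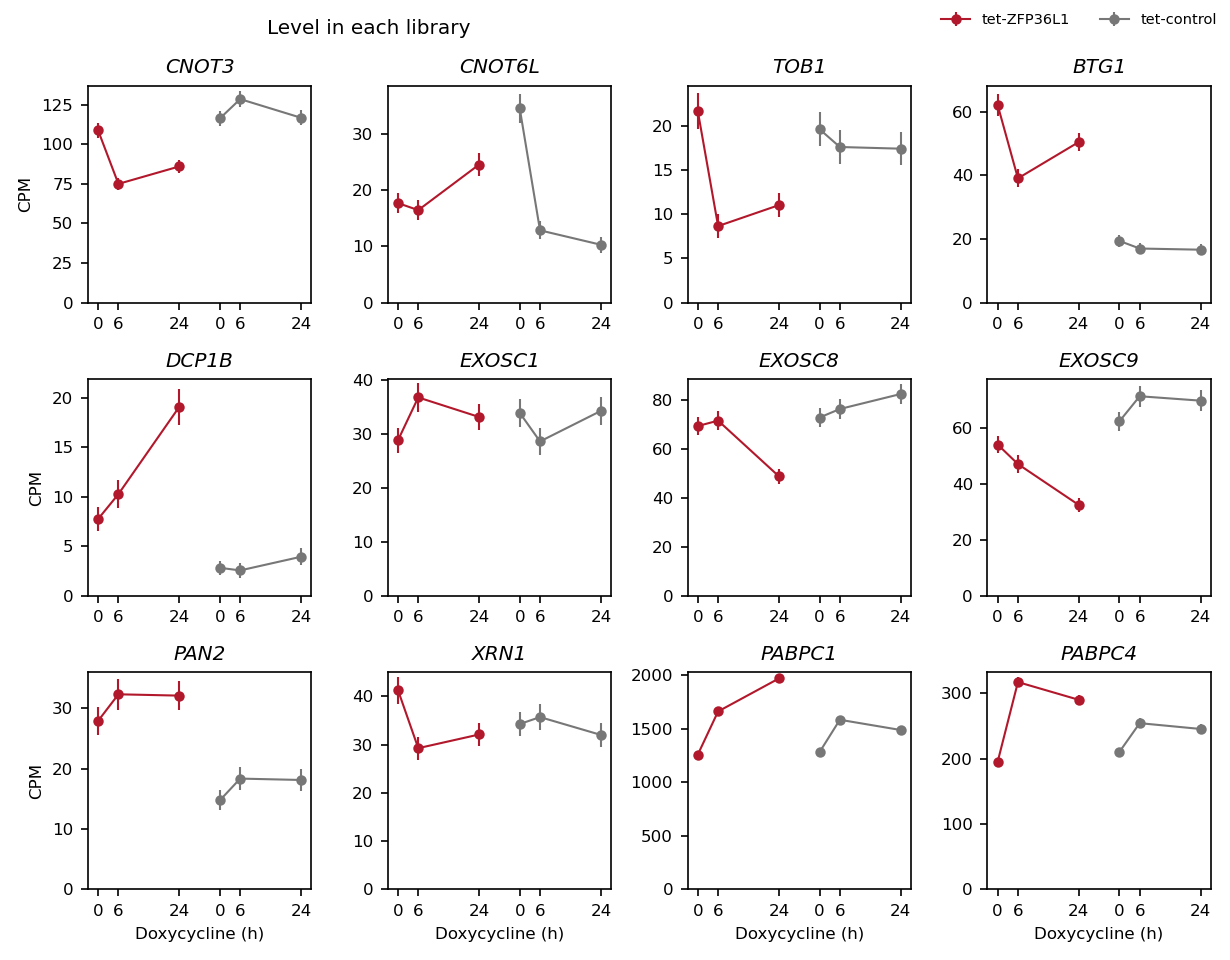
CPM at 0, 6 and 24 h of doxycycline in tet-ZFP36L1 (red, left in each panel) and tet-control (grey, right) for 12 decay genes, 1 library per point with 95% counting intervals; vertical axes differ between panels and start at 0. TOB1, CNOT3 and BTG1 are lowest at 6 h in tet-ZFP36L1, EXOSC8 and EXOSC9 are lowest at 24 h, and BTG1, DCP1B and PAN2 are higher in tet-ZFP36L1 already at 0 h.

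PAN2 and PAN3 form the deadenylase that trims long tails first, and PARN is a separate poly(A)-specific ribonuclease. None of the 3 was past 1.5-fold in induction difference at either time, with values between -0.10 and 0.13, which is near 0 (the sign of the median changed with the scaling). PAN2 (GRCh38 chromosome 12) stood at 27.9, 32.4 and 32.1 CPM in tet-ZFP36L1, against 14.7, 18.4 and 18.1 CPM in tet-control, so the lines differed to a like extent at all times, by 0.90, 0.80 and 0.81. PAN3 differed between lines by 0.06, 0.10 and -0.02, and PARN, the most abundant of the 3 per length at 40.1 TPM, by -0.16, -0.04 and -0.08.

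In decapping, DCP2 is the catalytic subunit, DCP1A and DCP1B are its paralogous partners, and EDC3, EDC4, PATL1, LSM1 and DDX6 promote decapping or link it to translational repression. EIF4ENIF1 carries the cap-binding protein eIF4E into this pathway, XRN1 is the cytoplasmic 5' to 3' exonuclease and XRN2 its nuclear paralog. Of the 10 measured genes, 0 were past 1.5-fold at 6 h (background 14.3% lower and 7.02% higher), where the median difference was 0.07. At 24 h, 0 were lower (background 17.4%) and 1 was higher (background 13.9%), and the median was -0.14 (0.03 with plain CPM and 0.01 with deposited TPM). The 6 h count depends on the setting. With protein-coding transcripts alone 2 were higher (LSM1 at 0.74 and EDC4 at 0.69), and with deposited TPM 1 was lower (XRN1 at -0.72).

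DCP1B (GRCh38 chromosome 12, 1946054 to 2004535, minus strand) stood at 7.76, 10.3 and 19.1 CPM in tet-ZFP36L1, against 2.83, 2.57 and 3.95 CPM in tet-control. Every tet-ZFP36L1 library was above every tet-control library. The induction difference was 0.50 (-0.05 to 1.05) at 6 h and 0.83 (0.33 to 1.32) at 24 h, and the lines differed by 1.31, 1.81 and 2.14 at 0, 6 and 24 h. The tet-control values rest on 57, 48 and 78 counts. The paralog DCP1A had 77, 9 and 14 counts in tet-ZFP36L1, against 59, 43 and 33 counts in tet-control, below the minimum for a measured gene. Its main matched transcript, ENST00000294241, had 64.9, 0.0 and 0.0 estimated counts in tet-ZFP36L1, against 31.6, 32.8 and 16.1 in tet-control. With a mean count of 10 as the minimum, its induction difference would be -1.86 at 6 h and -1.25 at 24 h. Transcripts without a match were left out, and DCP1A may have reads on them, so its counts may be too low. This was not tested.

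DCP2 stood at 55.8, 57.3 and 41.9 CPM in tet-ZFP36L1, against 46.1, 50.5 and 48.2 CPM in tet-control, a difference of -0.09 (-0.27 to 0.08) at 6 h and -0.48 (-0.65 to -0.30) at 24 h. The decapping scaffold EDC3 stood at 63.1, 98.4 and 84.9 CPM in tet-ZFP36L1, against 60.5, 65.5 and 64.2 CPM in tet-control. The tet-ZFP36L1 libraries at 6 and 24 h were the highest of the 6 for EDC3, with differences of 0.52 (0.37 to 0.67) and 0.34 (0.19 to 0.49). EDC4, the set's most abundant gene per length at 95.1 TPM, had differences of 0.33 and 0.08.

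XRN1 (GRCh38 chromosome 3), which has 3 copies of the heptamer, stood at 41.3, 29.2 and 32.1 CPM in tet-ZFP36L1, against 34.3, 35.7 and 32.0 CPM in tet-control. Its difference of -0.55 (-0.76 to -0.34) at 6 h was just inside 1.5-fold, and with the deposited TPM it was past it, at -0.72. At 24 h the XRN1 difference was -0.26 (-0.47 to -0.05), and there the lines had the same level. XRN2 stood at 176.5, 212 and 162 CPM in tet-ZFP36L1, against 170.4, 178 and 201.5 CPM in tet-control, with differences of 0.20 (0.11 to 0.30) and -0.36 (-0.45 to -0.27). The remaining genes of the set had small differences at 6 and 24 h: -0.22 and 0.02 for PATL1, 0.19 and -0.30 for LSM1, -0.06 and -0.34 for DDX6, and -0.05 and -0.02 for EIF4ENIF1.

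The exosome degrades RNA from the 3' end. EXOSC4, EXOSC5, EXOSC7, EXOSC8 and EXOSC9 belong to its ring, EXOSC1, EXOSC2 and EXOSC3 to its cap, and DIS3 and EXOSC10 carry its nuclease activity. The median induction difference was 0.15 at 6 h, with 4 of 10 genes below 0, and it was -0.05 with deposited TPM. At 24 h it was -0.26, with 8 of 10 below 0 and 2 lower by at least 1.5-fold (background 17.4%), and with plain CPM it was -0.09, with 6 below 0 and 1 lower. Among all measured genes, the bin with the highest counts had a median of -0.21 at 24 h and the bin with the lowest had 0.23, so the sign of a 24 h difference moved with count level. The exosome genes had mean counts between 424 and 4199.

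EXOSC9 (GRCh38 chromosome 4, 121801317 to 121817021, plus strand) stood at 54.1, 47.1 and 32.5 CPM in tet-ZFP36L1, against 62.4, 71.4 and 69.8 CPM in tet-control. All 3 tet-ZFP36L1 libraries were below all tet-control libraries. The induction difference was -0.39 (-0.56 to -0.22) at 6 h and -0.89 (-1.06 to -0.71) at 24 h. Its 2 leading coding transcripts, both with a 3' UTR of 53 bases that holds the heptamer printed above, had 398.6, 267.9 and 258.8 estimated counts (ENST00000379663) and 256.2, 160.2 and 112.0 (ENST00000243498) in tet-ZFP36L1, against 403.9, 423.3 and 483.3 and 469.0, 447.1 and 534.3 in tet-control. A transcript annotated as a target of nonsense-mediated decay, ENST00000513654, had 304.1, 365.6 and 234.5 in tet-ZFP36L1, against 224.5, 323.1 and 309.3 in tet-control. With protein-coding transcripts alone the difference was -0.59 at 6 h and -1.09 at 24 h.

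EXOSC8 (GRCh38 chromosome 13, 36998816 to 37009613, plus strand), the most abundant of the set per length at a mean of 115 TPM, stood at 69.5, 71.8 and 48.9 CPM in tet-ZFP36L1, against 73.0, 76.5 and 82.7 CPM in tet-control. The lines were alike until 24 h, where they differed by -0.75 (-0.86 to -0.64) and the induction difference was -0.68 (-0.83 to -0.53). EXOSC8 shared 11.6% of its 31-base words with other genes, SUPT20H among them, so its count is less certain, and with plain CPM it was not past 1.5-fold. The share was larger for EXOSC10 (39.5%), EXOSC4 (17.4%), EXOSC7 (15.7%) and DIS3 (12.9%), whose counts are less certain too. EXOSC1 stood at 28.8, 36.7 and 33.1 CPM in tet-ZFP36L1, against 33.9, 28.6 and 34.2 CPM in tet-control, and its difference at 6 h was 0.59 (0.36 to 0.81), at the edge of the limit.

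EXOSC2 stood at 63.3, 85.1 and 62.5 CPM in tet-ZFP36L1, against 92.1, 87.8 and 93.6 CPM in tet-control. The lines were alike at 6 h and apart at 0 and 24 h, which gave a difference of 0.49 (0.35 to 0.64) at 6 h and -0.04 at 24 h. Compared at the same time, 9 of 10 exosome genes were below tet-control at 0 h, with a median of -0.25, 9 at 6 h, with a median of -0.10, and 10 at 24 h, with a median of -0.60. Of all 11909 measured genes, 5987, 6086 and 6279 were below tet-control at these times. At 24 h, 5 exosome genes were at least 1.5-fold below tet-control: EXOSC9 at -1.09, EXOSC8 at -0.75, EXOSC4 at -0.69, EXOSC5 at -0.66 and EXOSC3 at -0.62. The background for this comparison was 20.3% of all measured genes, whose median was -0.05. It moved with count level. From the lowest to the highest counts, the 5 bins of all genes had 24 h medians of 0.31, 0.09, -0.08, -0.14 and -0.27. The share lower was 13.7% in the lowest bin and 29.1% in the highest. The number of exosome genes past 1.5-fold at 24 h depends on scaling: it was 6 with DESeq2 size factors, 3 with deposited TPM and 1 with plain CPM, while 10, 9 and 9 of the 10 genes were below tet-control. With plain CPM the median of the 10 was -0.41, against 0.14 for all measured genes. EXOSC7, EXOSC2, EXOSC4 and EXOSC5 already differed by -0.53, -0.54, -0.53 and -0.43 at 0 h.

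**Figure D4:**
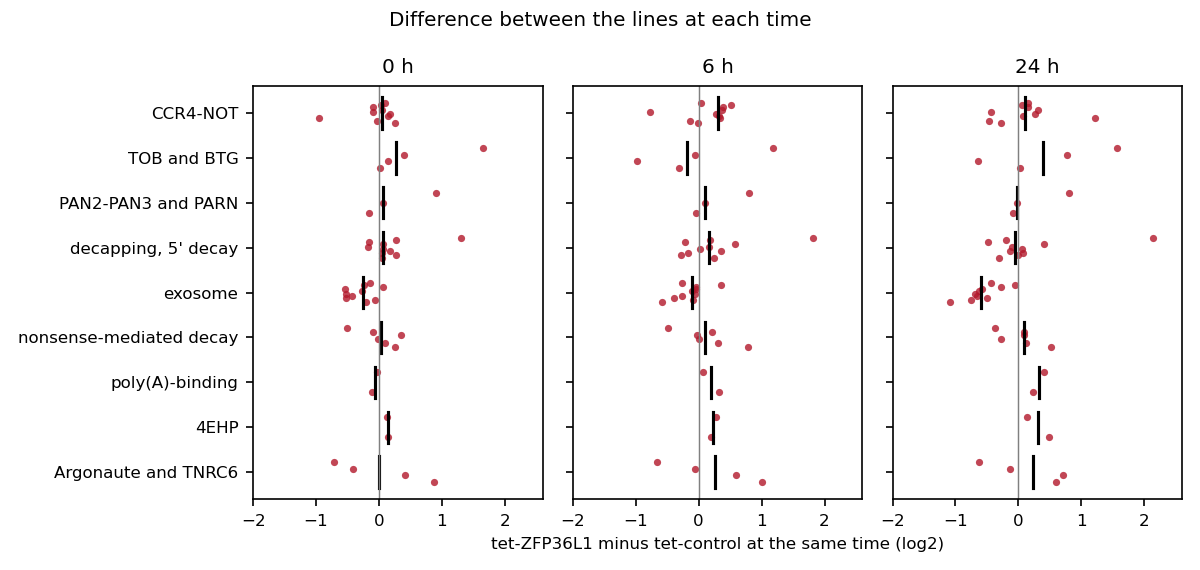
Difference between the lines (tet-ZFP36L1 minus tet-control, log2) at 0, 6 and 24 h for the measured decay genes, by set; each point is 1 gene, black bars are set medians, and the height of a point within its row only keeps points apart. Of the 10 exosome genes, 9 lie below 0 at 0 h and at 6 h and 10 at 24 h (9 with plain CPM). Of all 11909 measured genes, not drawn, 5987, 6086 and 6279 lie below 0. BTG1, DCP1B and PAN2 lie to the right at all times.

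Nonsense-mediated decay removes mRNAs with premature stop codons. UPF1 is its helicase, UPF2 and UPF3B are UPF1 partners, SMG1 is the kinase that phosphorylates UPF1, SMG6 is an endonuclease and SMG5 an adaptor. None of the 6 genes was past 1.5-fold in induction difference, with medians of 0.13 at 6 h and 0.09 at 24 h. UPF1 stood at 252, 264 and 213 CPM in tet-ZFP36L1, against 254.5, 264 and 259.9 CPM in tet-control, with a difference of 0.01 (-0.07 to 0.09) at 6 h and -0.27 (-0.35 to -0.19) at 24 h. The lines had nearly the same UPF1 level until the 24 h library of tet-ZFP36L1.

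UPF3B stood at 30.3, 34.7 and 36.9 CPM in tet-ZFP36L1, against 25.2, 19.9 and 25.6 CPM in tet-control, a difference of 0.53 (0.28 to 0.77) at 6 h and 0.26 (0.03 to 0.49) at 24 h. Every tet-ZFP36L1 library was above every tet-control library for UPF3B. SMG6 stood at 33.3, 27.6 and 30.3 CPM in tet-ZFP36L1, against 26.0, 28.0 and 28.5 CPM in tet-control, with differences of -0.38 (-0.61 to -0.14) and -0.27 (-0.49 to -0.04). SMG5, the set's most abundant gene per length at 80.0 TPM, had 0.31 and 0.19, UPF2 had 0.22 and 0.03, and SMG1, of whose words 21.1% are shared with other genes such as its pseudogene SMG1P2, had 0.04 and 0.15.

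The poly(A)-binding proteins coat the tail and link it to translation and to deadenylase adaptors. PABPC1 stood at 1259, 1663 and 1972 CPM in tet-ZFP36L1, against 1282, 1585 and 1489 CPM in tet-control. Both lines were lowest at 0 h, and the difference was 0.10 (0.06 to 0.13) at 6 h and 0.43 (0.40 to 0.46) at 24 h. PABPC4 stood at 195, 317 and 290.2 CPM in tet-ZFP36L1, against 210.3, 254 and 245.5 CPM in tet-control, with differences of 0.43 (0.34 to 0.51) and 0.35 (0.27 to 0.43). Neither was past 1.5-fold, although at 24 h PABPC1 reached 0.60 with plain CPM and PABPC4 reached 0.82 with deposited TPM. PABPC1 shared 19.3% of its words with copies such as PABPC3.

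EIF4E2 (4EHP) binds the cap without starting translation and GIGYF2 is its partner. EIF4E2 stood at 93.8, 114 and 101 CPM in tet-ZFP36L1, against 85.5, 94.4 and 92.1 CPM in tet-control, with differences of 0.14 (0.01 to 0.27) and 0.00 (-0.12 to 0.13). GIGYF2 stood at 92.2, 114 and 124 CPM in tet-ZFP36L1, against 82.9, 99.3 and 88.8 CPM in tet-control, with differences of 0.04 (-0.09 to 0.17) and 0.32 (0.20 to 0.45). Both were inside 1.5-fold at both times.

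In miRNA silencing, AGO2 holds the miRNA and TNRC6 scaffolds bring in the deadenylases. None of the 4 genes was past 1.5-fold in induction difference with gene sums of counts, while with the deposited TPM TNRC6B was at 0.77 at 6 h and TNRC6C at 0.93 at 24 h. TNRC6A stood at 60.8, 98.1 and 70.2 CPM in tet-ZFP36L1, against 81.8, 102 and 77.6 CPM in tet-control, with both lines highest at 6 h and differences of 0.37 (0.23 to 0.51) and 0.28 (0.13 to 0.43). TNRC6B stood at 47.9, 55.2 and 62.2 CPM in tet-ZFP36L1, against 35.9, 36.5 and 37.9 CPM in tet-control, with differences of 0.18 (-0.02 to 0.37) and 0.30 (0.11 to 0.48). TNRC6C was low, at 9.43, 12.4 and 11.8 CPM in tet-ZFP36L1, against 4.92, 5.89 and 7.69 CPM in tet-control, and both of its intervals included 0.

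AGO2 stood at 24.1, 30.6 and 20.5 CPM in tet-ZFP36L1, against 40.2, 48.8 and 32.0 CPM in tet-control. Every tet-ZFP36L1 library was below every tet-control library, and the difference between lines was -0.72, -0.67 and -0.63 at 0, 6 and 24 h. The induction difference was therefore small, 0.06 (-0.16 to 0.28) at 6 h and 0.09 (-0.14 to 0.33) at 24 h. A transcript annotated as a target of nonsense-mediated decay held 59.4% of AGO2 counts on average, and with protein-coding transcripts alone the 6 h value was -1.15.

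Before doxycycline the lines already differed at some of these genes. At 0 h, 2 of 51 were at least 1.5-fold lower in tet-ZFP36L1 than in tet-control (CNOT6L at -0.95 and AGO2 at -0.72; background 7.98%). At least 1.5-fold higher were 4 (BTG1 at 1.65, DCP1B at 1.31, PAN2 at 0.90 and TNRC6C at 0.87; background 10%). At 6 h the counts were 4 lower and 6 higher, against 15.3% and 12.4% of all genes, and at 24 h they were 7 lower and 7 higher, against 20.3% and 18.4%. The median difference between the lines was 0.05, 0.03 and 0.00 at 0, 6 and 24 h.

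The AU-rich heptamer was present in the 3' UTR of 20 of the 51 measured decay genes (39.2%), against 3475 of 10897 measured protein-coding genes (31.9%). The 3' UTRs with a copy had a like median length, 2390 bases in the decay genes and 2373 bases in all genes. Of the 20 decay genes with a copy, 1 was at least 1.5-fold lower at 6 h (5%; CNOT3), against 27% of all genes with a copy. At 24 h it was also 1 of 20 (5%; EXOSC9), against 29.2% of all genes with a copy. Among genes without a copy the shares were 3.23% of decay genes and 8.25% of all genes at 6 h, and 6.45% and 12.4% at 24 h.

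The median induction difference of the decay genes with a copy was -0.10 at 6 h and -0.08 at 24 h, against -0.28 and -0.27 for all genes with a copy. Decay genes with a copy included several far from 1.5-fold, such as UPF1 with the longer TTATTTATT at 0.01 at 6 h, and GIGYF2 at 0.04 at 6 h. TNRC6B, with 2 copies in 12567 bases, was at 0.18 and 0.30. Of the 5 decay genes with 2 or more copies, none was at least 1.5-fold lower at either time in sums of estimated counts, against 33.5% and 35.5% of all genes with 2 or more. With the deposited TPM, XRN1, which has 3 copies, was at -0.72 at 6 h. With protein-coding transcripts alone AGO2 was at -1.15 at 6 h. Its 7 copies lie in ENST00000220592, with 127.8 (0 h) and 123.7 (6 h) estimated counts in tet-ZFP36L1, against 309.2 and 298.4 in tet-control. Another coding transcript, ENST00000519980, had 105.9 and 0.2 in tet-ZFP36L1, against 0.0 and 72.4 in tet-control. A copy in this window is a description of sequence and does not show that the protein bound there.

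**Figure D5:**
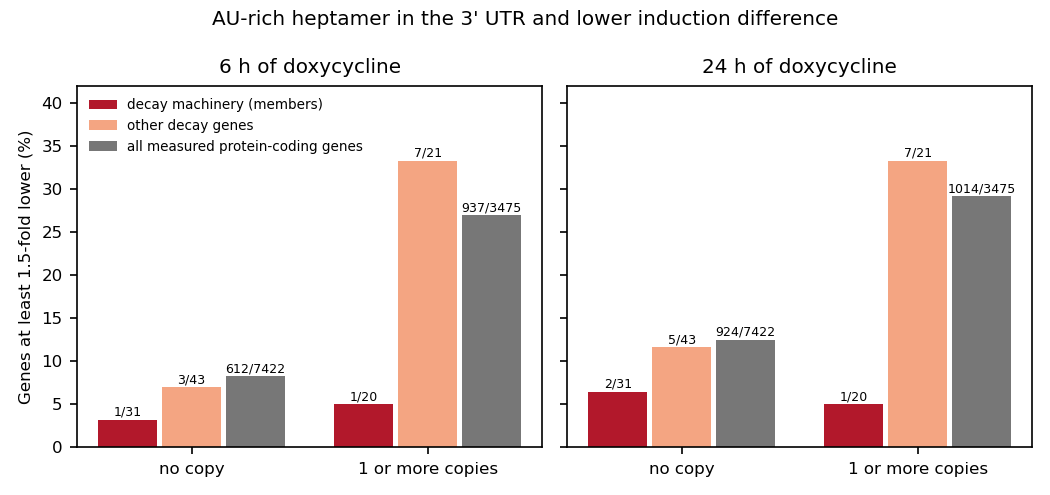
Share of genes at least 1.5-fold lower in induction difference at 6 h (left panel) and 24 h (right panel), for genes with no copy and with 1 or more copies of the AU-rich heptamer in the 3' UTR; bars are the measured decay genes, the other decay genes and all measured protein-coding genes, with counts above them. Among genes with a copy the decay machinery stands at 5% at both times, against 27% and 29.2% of all genes.

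A further 64 genes of mRNA decay and its regulators, listed by name and all measured, were looked at beside the 52. This list too was drawn up with earlier results of these data known. At 6 h, 10 were at least 1.5-fold lower (15.6%; background 14.3%) and 3 higher (4.69%; background 7.02%). At 24 h, 12 were lower (18.8%; background 17.4%) and 4 higher (6.25%; background 13.9%). The shares of lower genes were near the background. All 10 that were lower at 6 h were lower at 24 h too, and the times share their 0 h libraries. They were BTG3, TENT4A, RC3H2, LARP1, LARP4, LARP4B, CPEB2, CPEB4, MEX3C and SAMD4B.

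BTG3, the relative of TOB1 and BTG1 outside the 52, stood at 60.2, 22.5 and 21.1 CPM in tet-ZFP36L1, against 53.1, 56.7 and 53.1 CPM in tet-control. Its differences were -1.50 (-1.69 to -1.30) and -1.49 (-1.68 to -1.29), larger than those of TOB1. CPEB2 and CPEB4, which bind cytoplasmic polyadenylation elements, had -1.55 and -1.50 at 6 h and -1.35 and -1.02 at 24 h. At 6 h CPEB2 changed from 0 h by -0.75 in tet-ZFP36L1 and by 0.81 in tet-control, and CPEB4 by -0.84 and 0.65. CPEB2 had 154, 83 and 64 counts in tet-ZFP36L1, against 98, 166 and 105 counts in tet-control, and its 6 h interval was -2.04 to -1.07. RC3H2 (Roquin-2), an RNA-binding ubiquitin ligase that recruits CCR4-NOT, stood at 119, 68.1 and 56.6 CPM in tet-ZFP36L1, against 90.9, 118 and 92.3 CPM in tet-control, with differences of -1.18 and -1.09.

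The poly(A) polymerase TENT4A had -0.99 and -1.12, LARP4, which binds poly(A) and PABPC1, had -0.89 and -0.95, and the RNA-binding repressor SAMD4B had -0.94 and -0.76. In each of these genes both tet-ZFP36L1 libraries with doxycycline were below its 0 h library. The endonuclease ZC3H12A (Regnase-1) was higher, at 38.0, 48.0 and 74.6 CPM in tet-ZFP36L1, against 18.7, 14.5 and 19.6 CPM in tet-control, with differences of 0.69 (0.43 to 0.95) and 0.89 (0.66 to 1.13). Of the 21 genes of this wider list with the heptamer, 7 were lower by at least 1.5-fold at each time (33.3%), against 1 of 20 of the decay machinery at each time and 27% (6 h) and 29.2% (24 h) of all genes with a copy.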

How the data were processed

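Total RNA from 6 J82 cultures was read on a BGISEQ-500 instrument, per the labels. Per the submitters' processing notes, the build was hg19 and the tools were kallisto and DESeq2, with no version named. No source used here states the strand setting. The estimated counts and the TPM values of 196354 transcripts per library were deposited by the authors. TPM is scaled for length and depth, and estimated counts need not be whole. Transcripts were matched by identifier to GENCODE 29 (GRCh38), where 181857 matched, and no coordinate was converted. Those without a match, with 5.12% to 5.47% of the counts, were left out. The total of estimated counts per library was 20739025 to 21380480.

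Estimated counts were summed per gene, rounded and scaled by TMM factors computed on genes averaging 10 counts or more (edgeR 4.0.16, R 4.3.3). The scale is log2(CPM + 0.5), on which low genes change less than they do in CPM, and genes averaging 50 counts or more were measured. With 1 library per group, no count test was run. Intervals come from the delta method on Poisson counts of 1 library per group, so they cover counting error only. They leave out the uncertainty in assigning reads to transcripts, and the reads carry no molecular identifiers. The steps were tested on simulated data.

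The members and lists were chosen with earlier results of these data known. Named are ZFP36L1, each member past 1.5-fold, the 2 largest absolute differences per set and time, each set's most abundant gene per length, the paralogs, and up to 8 other decay genes past 1.5-fold at both times. Genes were compared by shared 31-base words, and sharing makes a count less certain. As alternatives, scaling was by size factors (DESeq2 1.42.0), plain CPM or deposited TPM, with other count minimums, pseudocounts and thresholds, protein-coding transcripts alone, lines compared at the same time, and 3 added after the data were seen. Python 3.11.15, numpy 2.4.6, pandas 2.3.3 and matplotlib 3.10.9 were used.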

Additional observations from a re-analysis of the deposited data

Results flagged for a closer look

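The induction difference of CNOT6L at 24 h was 2.16, because the level was above 0 h in tet-ZFP36L1 and below 0 h in tet-control. This difference between the lines was not tested, since each group had 1 library. Without the long transcript ENST00000504123, whose estimated count was near 0 in 3 of the 6 libraries, it was 1.24.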

How the results depend on the processing

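Of 114 recomputed medians and counts over all members 95 stayed within the limits set for them (the members' median counting half-width for a median, 1.5 times for a count) and 19 moved; medians of single sets were not among them, and those that changed sign with the scaling are given above. Of 986 values of single members 847 stayed within their counting interval and 139 moved. No value past 1.5-fold changed sign, while some nearer 0 did, among them TNRC6C at 24 h (0.93 with deposited TPM) and AGO2 at 6 h (-1.15 with protein-coding transcripts). Plain CPM put the 24 h medians at 0.17 for the induction difference and 0.17 for the change in tet-ZFP36L1, where the median of all genes also moved, to 0.15 and 0.13. At 6 h the count of lower members was 4 with protein-coding transcripts alone, 4 with lines compared at the same time, 1 at 2-fold and 8 at a change of 25%, and the count of higher members was 1 with a pseudocount of 5, 6 with protein-coding transcripts, 6 with lines at the same time, 1 at 2-fold and 13 at 25%. With protein-coding transcripts alone, 1665 of 10729 genes were lower and 988 higher at 6 h, so the share of higher members was above the background there. At 24 h the count of lower members was 7 with lines at the same time, 0 at 2-fold and 11 at 25%, and the count of higher members was 4 with deposited TPM, 1 with a mean count of at least 200, 7 with lines at the same time, 1 at 2-fold and 7 at 25%. Without the members that share at least 10% of their words, 36 remained, with 2 lower and 2 higher at 6 h and 2 lower at 24 h. With the leading transcript chosen by TPM, 17 of 51 members held the heptamer. No paired analysis was possible because the groups share 1 replicate number, and a fit of line plus time, which takes both lines to respond alike, was not run. With 1 library per group none could be left out, culture-to-culture variation was not measured, and low counts limit BTG2, DCP1B, TNRC6C and DCP1A most. The DCP1A counts may also lack reads on transcripts without a match.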
